A study of Mus musculus with 6 samples.

Results

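The peroxisome proliferator-activated receptors (PPARs), the estrogen-related receptors (ERRs) and the coactivator PGC-1α form the main transcriptional circuit for fuel use in the heart. Their 10 genes examined here were Ppara, Ppard and Pparg, the PPAR partner Rxra, the 3 ERR genes Esrra, Esrrb and Esrrg, the coactivator gene Ppargc1a, the corepressor gene Nrip1, and Nrf1, the gene of nuclear respiratory factor 1. They were taken by name from the 54532 genes of the deposited expression table, and all 10 were found and tested. None of the 10 passed the test between Mc4r KO and WT hearts. Esrra had the largest difference, with a mean level of 76.0 ± 7.56 FPKM in Mc4r KO and 41.8 ± 20.0 in WT hearts (SD, n = 3 each), and its WT values were themselves spread over a range from 29.0 to 64.8.

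PPARs are nuclear receptors that are activated by fatty acids and bind DNA together with a retinoid X receptor such as RXRα. ERRs are orphan receptors that act on genes of the citric acid cycle and of oxidative phosphorylation. PGC-1α docks on PPARs, ERRs and NRF1 and links them to the making of mitochondria, whereas the product of Nrip1, RIP140, represses many of the same genes. The adult heart draws most of its energy from fatty acid oxidation, so this circuit is highly active in cardiomyocytes.

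The study asked what the loss of the melanocortin-4 receptor, a receptor of the hypothalamus that limits feeding, does to the myocardium before function declines. Hearts of 3 homozygous Mc4r knockout mice and 3 WT littermates were sequenced, all aged 12 weeks, on a C57B/6/N background, bred from heterozygous parents and fed standard chow. No label limits the knockout to a tissue, so an effect within the heart and one of the whole body cannot be told apart. Values were FPKM, fragments per kilobase of gene scaled by library, which allow levels of different genes to be set side by side. To describe the scaling, each gene's ratio to its geometric mean over the libraries was taken. The median of these ratios was 1.006 in every library. The deposited values were thus already scaled to the typical gene, and not by the fragment total alone.

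Reads counted on genes ranged from 14691076 to 16047003 per library. Mc4r itself had 2 reads in WT replicate 3 and 0 in the 5 other libraries, and therefore could not check the genotype labels. Titles name muscle, the other labels name heart, and the study's text speaks of the left ventricle. The 7 cardiomyocyte markers were high in every library, with Myh6 between 2231 and 3082 FPKM, and the skeletal muscle myosins Myh1, Myh2 and Myh4 were below a mean of 0.1. By atrial markers, WT replicate 3 stood apart. Its 4 atrial markers summed to 747.1 FPKM against 6.29 to 136.3 in the 5 other libraries, with Myl7, the atrial light chain, at 307.0 FPKM. Transcripts of the mitochondrial genome took 47.1% of the FPKM sum in WT replicate 3, 59.3% and 57.4% in WT replicates 1 and 2, and 43.0% to 46.6% in the Mc4r KO libraries. By that share, WT replicates 1 and 2 were the ones that stood apart. Over genes with a mean of at least 1 FPKM, WT replicate 3 correlated at 0.946 and 0.952 with WT replicates 1 and 2. With Mc4r KO replicates 1, 2 and 3 it correlated at 0.962, 0.951 and 0.952. In bulk hearts, fewer cells of a type and less RNA per cell cannot be told apart.

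Across the genome, 83 of 18035 tested genes were called (0.46%), 57 higher and 26 lower in Mc4r KO hearts. A call needed an adjusted p under 0.05 in limma and an absolute log2 fold change above 0.75. Of the 10 regulators 0 were called, and their adjusted p-values ran from 0.135 to 0.99 in limma. At an unadjusted p under 0.05 there were 3 regulators (Esrra, Ppara and Esrrb, 30% of them) beside 20.9% of all genes. The same 3 genes had groups that did not overlap, beside 26.4% of all genes. Both shares are near those of the genome, and the 10 regulators together had a median log2 fold change of 0.09 beside -0.01 over all genes.

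**Figure D1:**
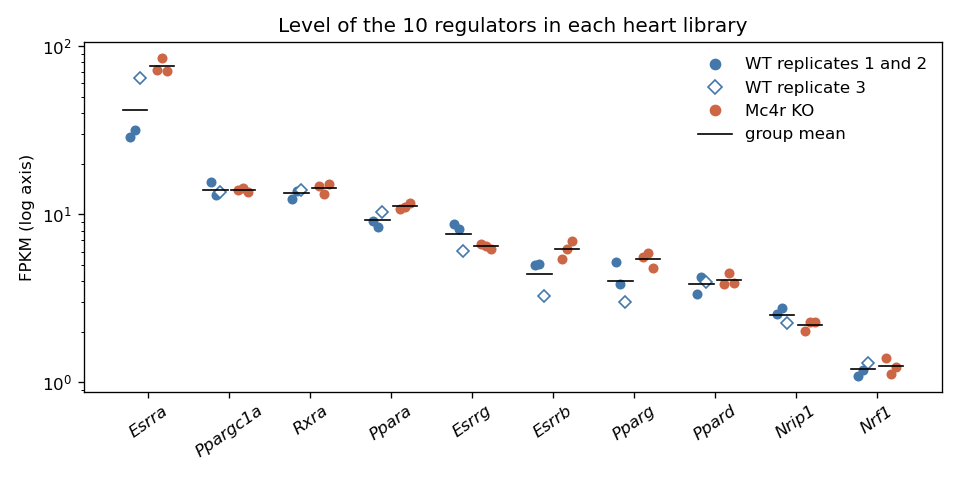
Level of each regulator in FPKM (log axis) in the 6 libraries, ordered by mean level, with WT in blue, Mc4r KO in orange, WT replicate 3 as an open diamond and black lines for group means. Esrra spans 29.0 to 84.7 FPKM, and Esrra, Ppara and Esrrb are the genes whose groups do not overlap.

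The promoters of Esrra and Ppara are shown first, because both hold the core of an NRF1 site close to the start and NRF1 is itself among the regulators. The core searched was GCGCATGC, or GCATGCGC on the other strand, in the 250 bases before each start in RefSeq (build GRCm38.p6). It was in 2.26% of 32851 such windows. All 10 regulators were matched to 19 windows, and 2 of them held the core, 1 of Esrra and 1 of Ppara. Each sequence below runs 5′ to 3′ on the strand of its gene, and capitals mark the core.
Esrra, chr19:6921809-6922058, minus strand: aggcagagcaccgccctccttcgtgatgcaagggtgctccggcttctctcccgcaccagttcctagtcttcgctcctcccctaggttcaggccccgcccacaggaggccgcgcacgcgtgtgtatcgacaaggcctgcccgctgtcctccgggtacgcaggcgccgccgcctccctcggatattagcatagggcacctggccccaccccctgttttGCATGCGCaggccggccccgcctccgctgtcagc
Ppara, chr15:85735526-85735775, plus strand: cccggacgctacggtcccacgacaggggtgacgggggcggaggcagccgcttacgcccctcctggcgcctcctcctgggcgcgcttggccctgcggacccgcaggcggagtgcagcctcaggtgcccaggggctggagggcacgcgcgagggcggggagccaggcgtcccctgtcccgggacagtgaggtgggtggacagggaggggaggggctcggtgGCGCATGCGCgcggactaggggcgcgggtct

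The core of Esrra lay at bases -34 to -27 from the start. In Ppara the 2 strands' cores overlap in 1 palindrome, at bases -31 to -22. Of the 10 NRF1 target genes in a list of known targets, 8 had a window and 3 held the core. They are shown with 10 bases on either side for comparison with the pair above.
Cycs, chr6:50566612-50566639, minus strand: atgctagctcGCATGCGCgcgcacaaac
Alas1, chr9:106247906-106247935, minus strand: cgcacccaagGCGCATGCGCggcggtcact
Polrmt, chr10:79746697-79746724, minus strand: gagtatttctGCGCATGCtctcttgccg

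Cycs encodes cytochrome c, Alas1 the first enzyme of haem synthesis and Polrmt the mitochondrial RNA polymerase. The palindrome GCGCATGCGC of Ppara recurs in Alas1, and also in Etfdh, a known PPAR target. The core was not limited to NRF1 targets. Of genes with a window, it was in 3 of 15 ERR and PGC-1 targets (Acadm, Cycs and Sdhb) and 2 of 23 PPAR targets (Acadm and Etfdh). Among partners and coregulators it was in 1 of 15 (Rxrb). For ERRs, the half-site AAGGTCA, or TGACCTT on the other strand, was in 4.08% of windows and in 1 of the 19 windows of the regulators, at the second listed start of Rxra. In the list of ERR and PGC-1 target genes, 15 of 17 genes had a window and 2 held the half-site, Acadm and Perm1. The half-site was not limited to these: 1 of 23 PPAR targets (Acadm) held it. So did 1 of 15 partners and coregulators (Rxrg) and 1 of 5 activators of Ppargc1a transcription (Mef2c). The longer ERR site TCAAGGTCA was in 0.387% of windows, and 2 copies of AGGTCA spaced by 1 base, the PPAR element, in 0.0335%. Neither was found in the windows of the regulators or of any gene list, the lists of known ERR and PPAR targets included. A match of letters is a description and does not show binding.
Rxra, second start, chr2:27709233-27709259, plus strand: ggtggcaggaAAGGTCAgtcactctct
Perm1, chr4:156215715-156215741, plus strand: gaatccggtgTGACCTTagctaatgcc

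Among the PPAR genes, Ppara had the highest level in every library. Its receptor is the main fatty acid sensor of the cardiomyocyte. Ppara (chr15:85734983-85802819) was at 9.08, 8.37 and 10.4 FPKM in WT replicates 1, 2 and 3 and at 10.8, 11.1 and 11.7 in Mc4r KO replicates 1, 2 and 3. All Mc4r KO values lay above all WT values, but the lowest of them exceeded the highest WT value by less than the WT spread. The log2 fold change was 0.27 (SE 0.10, 95% interval 0.03 to 0.51, limma adjusted p = 0.202). It was 0.08 after scaling to the FPKM outside the mitochondrial chromosome and 0.07 with the mitochondrial share as a covariate.

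Pparg encodes the receptor that drives fat cell formation, and its level in a heart can include adipose tissue. Pparg (chr6:115360951-115490399) was at 5.19, 3.87 and 3.02 FPKM in WT and at 5.54, 5.86 and 4.77 in Mc4r KO hearts. WT replicate 1 lay above the lowest Mc4r KO library, so the groups overlapped, and WT replicate 3 was the lowest of all. The log2 fold change was 0.44 (SE 0.20, 95% interval -0.02 to 0.90, limma adjusted p = 0.258). It was 0.99 with the mitochondrial share as a covariate (limma adjusted p = 0.229) and 0.25 after scaling outside the mitochondrial chromosome. Without WT replicate 3 it was 0.26 (limma adjusted p = 0.367). Of 10 adipocyte markers, 7 had a mean below 0.1 FPKM, among them Adipoq and Plin1, the adipokine and the lipid droplet coat that define fat cells. The 10 markers summed to 12.8 to 17.5 FPKM in WT and 19.9 to 27.1 in Mc4r KO hearts. Nearly all of it came from Cidea, at 12.1 to 15.7 and 19.3 to 27.0 FPKM. The 2 other tested markers had negative log2 fold changes at low levels. Cfd was at 0.385 to 0.831 FPKM in WT and 0 to 0.210 in Mc4r KO hearts, and Car3 at 0.173 to 0.738 and 0 to 0.270. Adipoq did not exceed 0.128 FPKM in any library.

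Ppard encodes the broadly expressed member of the family. Ppard was at 3.35, 4.26 and 3.93 FPKM in WT and at 3.87, 4.45 and 3.88 in Mc4r KO hearts, with overlapping groups and a log2 fold change of 0.08 (SE 0.13, 95% interval -0.22 to 0.38, limma adjusted p = 0.754). Summed over the 3 PPAR genes, the level was 17.1 ± 0.580 FPKM in WT and 20.6 ± 0.651 in Mc4r KO hearts (SD, n = 3 each), and the groups did not overlap, a description to which no test was applied. Groups also did not overlap for 26.4% of all single genes, and the sum was not taken under another scaling. After scaling outside the mitochondrial chromosome, log2 fold changes were 0.08 for Ppara, 0.25 for Pparg and -0.11 for Ppard. The share of Ppara in that sum was 54.0% ± 5.05 and 54.2% ± 2.95, so the make-up of the family differed by less than the spread between replicates. Within a library, Ppard stood to Ppara at 0.419 ± 0.0782 in WT and 0.364 ± 0.0354 in Mc4r KO hearts (adjusted p = 0.4, exact two-sided permutation test over 3 ratios, where 3 against 3 cannot go below 0.1 before adjustment).

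Rxra encodes the shared partner of PPARs. It was at 12.4, 13.8 and 14.0 FPKM in WT and at 14.7, 13.2 and 15.1 in Mc4r KO hearts. The groups overlapped, and the log2 fold change was 0.09 (SE 0.09, 95% interval -0.13 to 0.31, limma adjusted p = 0.602). Scaling to the FPKM outside the mitochondrial chromosome lowered the all-gene median from -0.01 to -0.19 on the log2 scale, and turned Rxra to -0.10, Ppard to -0.11 and Nrf1 to -0.13, while Ppara and Pparg stayed positive.

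Esrra encodes ERRα, the ERR of highest level in these hearts and a major partner of PGC-1α. Esrra (chr19:6910977-6921813, minus strand) was at 29.0, 31.6 and 64.8 FPKM in WT replicates 1, 2 and 3 and at 71.9, 84.7 and 71.4 in Mc4r KO replicates 1, 2 and 3. The groups did not overlap, but WT replicate 3 lay close to the Mc4r KO libraries and far from the other WT hearts. The log2 fold change was 0.96 (SE 0.29, 95% interval 0.28 to 1.63, limma adjusted p = 0.135). Without WT replicate 3 it was 1.32, past the threshold (limma adjusted p = 0.0105, where 3.5% of genes were called). WT replicates 1 and 2, which remain in that setting, had the highest mitochondrial shares, so share and genotype cannot be told apart there. Esrra also passed with array weights (1.13, limma adjusted p = 0.037, 2.41% of genes called) and with limma voom on recovered reads (0.95, limma adjusted p = 0.046, 1.76% of genes called).

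Other values moved with Esrra across the libraries. The mitochondrial share was highest in the pair of WT libraries with the lowest Esrra, and with it as a covariate the log2 fold change of Esrra was 0.10 (limma adjusted p = 0.924). Outside the mitochondrial chromosome, the GC content of genes weighted by reads was 50.1%, 50.3% and 50.8% in WT replicates 1, 2 and 3. It was 51.0% in each Mc4r KO library. Esrra has a GC content of 61.8%, the highest of the 10 regulators. With the GC trend removed its log2 fold change was 0.65 (limma adjusted p = 0.165), short of the fold threshold. Library, mitochondrial share, GC content and genotype cannot be told apart here. The share is lower and the GC content higher in all Mc4r KO libraries than in all WT libraries. The atrial marker Myl7 was at 0.240, 28.1 and 307.0 FPKM in WT replicates 1, 2 and 3, the same order as Esrra within WT. In Mc4r KO replicates 1, 2 and 3 it was at 38.8, 0.558 and 0.528, while Esrra was high in each. With Myl7 as a covariate the log2 fold change of Esrra was 1.12 (limma adjusted p = 0.0984). Esrra also shares 1.66% of its exonic bases with Trmt112 on the opposite strand and 2.07% with Mir6990. Trmt112 was at 9.61 to 12.8 FPKM in WT and 10.8 to 11.3 in Mc4r KO hearts, without the step seen in Esrra.

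**Figure D2:**
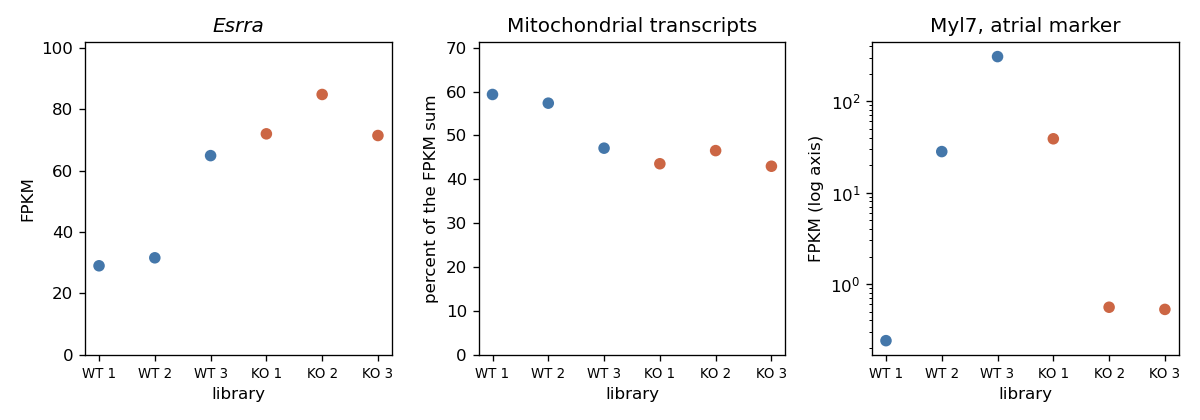
Esrra in FPKM, the percentage of the FPKM sum on the mitochondrial chromosome, and the atrial marker Myl7 in FPKM (log axis) in each library, WT in blue and Mc4r KO in orange. Esrra in WT replicate 3 (64.8 FPKM) sits near the Mc4r KO libraries, as does its mitochondrial share of 47.1%, whereas its Myl7 of 307.0 FPKM is far above all others.

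Esrrb and Esrrg encode the other ERRs, of which ERRγ is the isoform known for the metabolic maturation of the heart after birth. Esrrb (chr12:86361117-86521628) was at 4.98, 5.04 and 3.27 FPKM in WT and at 5.41, 6.25 and 6.96 in Mc4r KO hearts. The groups did not overlap, WT replicate 3 was the lowest library, and the log2 fold change was 0.50 (SE 0.19, 95% interval 0.05 to 0.94, limma adjusted p = 0.202). Without WT replicate 3 it was 0.30 (limma adjusted p = 0.2), and with the mitochondrial share as a covariate 0.98 (limma adjusted p = 0.244).

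Esrrg was at 8.72, 8.23 and 6.08 FPKM in WT and at 6.62, 6.47 and 6.26 in Mc4r KO hearts. Here too WT replicate 3 sat with the Mc4r KO libraries and below them. The log2 fold change was -0.23 (SE 0.14, 95% interval -0.57 to 0.11, limma adjusted p = 0.408). Without WT replicate 3 it was -0.39, with a limma adjusted p of 0.0407 but short of the fold threshold, and with the mitochondrial share as a covariate it was 0.17.

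Summed over the 3 ERR genes, the level was 53.9 ± 17.6 FPKM in WT and 88.7 ± 7.61 in Mc4r KO hearts (SD, n = 3 each). Without Esrra the sum was 12.1 ± 2.40 and 12.7 ± 0.592 FPKM, a difference within the spread. Esrra held 67.9%, 70.4% and 87.4% of the sum in the 3 WT hearts in turn, against 85.7%, 87.0% and 84.4% in Mc4r KO hearts. The share of Esrrg was 20.4%, 18.3% and 8.20% in WT and 7.89%, 6.64% and 7.39% in Mc4r KO hearts. The ratio of Esrrg to Esrra within a library does not depend on the scaling, and was 0.301, 0.261 and 0.0938 in WT and 0.0920, 0.0763 and 0.0876 in Mc4r KO hearts. The log2 ratio differed by -1.19, with all Mc4r KO values below all WT values (p = 0.1, the smallest possible, and adjusted p = 0.3, exact two-sided permutation test). WT replicate 3 lay next to Mc4r KO replicate 1 in this ratio and far from the other WT hearts.

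**Figure D3:**
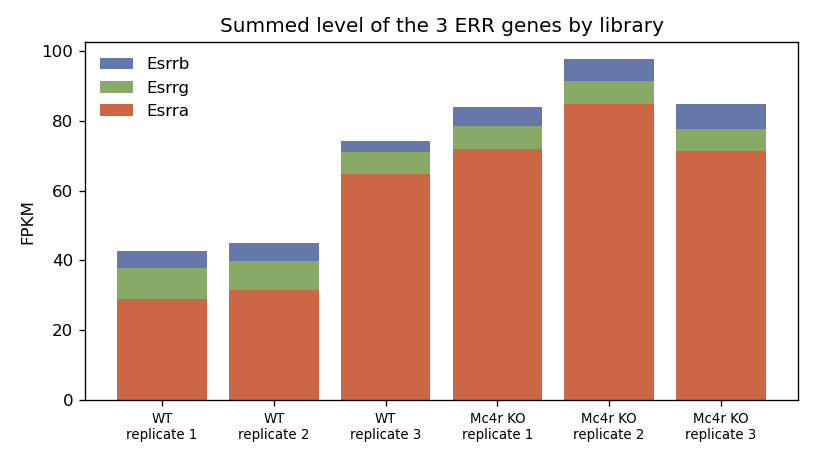
Stacked bars of Esrra, Esrrg and Esrrb in FPKM for each library, starting at 0. The sum is 42.7 and 44.9 FPKM in WT replicates 1 and 2, 74.2 in WT replicate 3 and 84.0 to 97.5 in Mc4r KO, and nearly all of the difference is Esrra.

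Ppargc1a was among the regulators with the smallest difference. It encodes PGC-1α, which in heart and muscle is induced by exercise, cold and fasting. Ppargc1a (chr5:51454250-51567726, minus strand) was at 15.5, 13.0 and 13.5 FPKM in WT and at 13.9, 14.4 and 13.5 in Mc4r KO hearts. The Mc4r KO values all lay inside the WT range. The log2 fold change was -0.0035 (SE 0.09, limma adjusted p = 0.99), and its 95% interval of -0.22 to 0.22 leaves room for a change of that size in either direction. Nrip1, the corepressor gene, was at 2.54, 2.77 and 2.25 FPKM in WT and at 2.04, 2.29 and 2.28 in Mc4r KO hearts, with overlapping groups and a log2 fold change of -0.18 (SE 0.13, 95% interval -0.48 to 0.12, limma adjusted p = 0.466). Ppargc1a stood to Nrip1 at 5.61 ± 0.783 in WT and 6.35 ± 0.472 in Mc4r KO hearts (adjusted p = 0.4, exact two-sided permutation test).

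Nrf1 encodes an activator of nuclear genes for the respiratory chain and is distinct from the stress regulator NRF2. It had the lowest level of the 10, at 1.10, 1.18 and 1.31 FPKM in WT and at 1.39, 1.12 and 1.23 in Mc4r KO hearts. The groups overlapped, and the log2 fold change was 0.05 (SE 0.16, 95% interval -0.31 to 0.42, limma adjusted p = 0.881). With 159 to 230 reads per library, counting alone gave Nrf1 an error of 6.59% to 7.93%, beside 1.75% to 3.10% for Esrra.

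**Figure D4:**
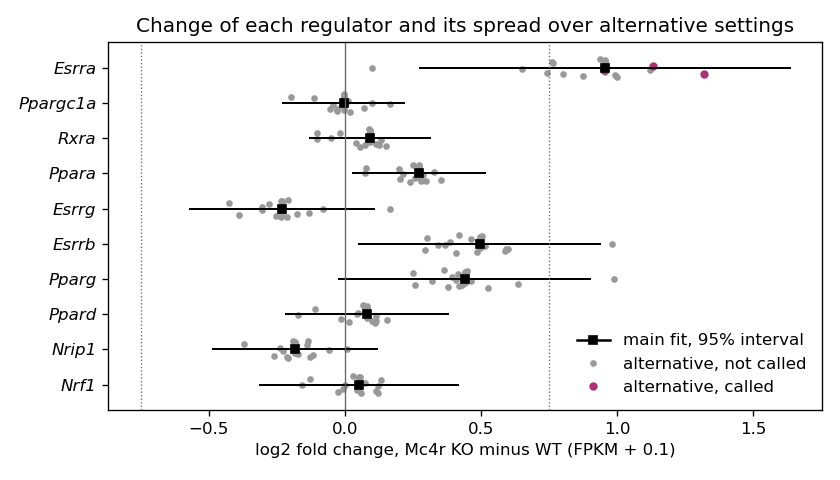
Log2 fold change of each regulator, Mc4r KO minus WT on log2(FPKM + 0.1), as a black square with its 95% interval, and small dots for 23 alternative settings, coloured where the gene was called. Dotted lines mark 0.75 in either direction, which the Esrra square alone passes at 0.96, and Esrra is the gene with called dots.

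Ordered by mean level over the 6 libraries, the regulators ran Esrra (58.9 FPKM), Ppargc1a (14.0), Rxra (13.9), Ppara (10.2), Esrrg (7.06), Esrrb (5.32), Pparg (4.71), Ppard (3.96), Nrip1 (2.36) and Nrf1 (1.22). Of the 9 neighbouring pairs, 5 had the same order in all 6 libraries: Esrra above Ppargc1a, Rxra above Ppara, Ppara above Esrrg, Ppard above Nrip1 and Nrip1 above Nrf1. Each of these had p = 0.0312 before and 0.0563 after adjustment over the 9 pairs in an exact two-sided sign-flip permutation test. That is the smallest p the test can give. The order was taken from the same 6 libraries, of both genotypes, so any pair in constant order reaches it. The p therefore adds nothing to the counts of libraries. Ppargc1a and Rxra did not differ beyond their spread, with Ppargc1a above in 2 of 6 libraries. Nor did Esrrg and Esrrb (5 of 6), Esrrb and Pparg (4 of 6) or Pparg and Ppard (4 of 6).

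The genes whose pattern over the 6 libraries was most like that of 3 of the regulators are given as a description, with no test over 10220 protein-coding genes. For Esrra they were Tomm7 (Pearson r = 0.9993), Psmb6 (0.9991) and Ptpa (0.9987). Tomm7, a small subunit of the mitochondrial import channel, was at 14.1, 15.2 and 31.3 FPKM in WT and at 33.0, 39.0 and 32.9 in Mc4r KO hearts, the same split of the WT libraries as in Esrra. For Ppara they were Ccdc28b (0.9997), Acot8 (0.9971), a peroxisomal thioesterase, and Zfp628 (0.9940). For Ppargc1a they were Zfp944 (0.9803), Kbtbd3 (0.9799) and Cdk8 (0.9787), a kinase of the Mediator complex. The 6 points share library, depth and the split of the WT replicates.

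Target genes were read from lists of known targets, and 0 genes of any list were called. Of 30 PPAR target genes, 22 had a positive and 8 a negative log2 fold change (median 0.15), beside 48.8% positive and a median of -0.01 over all genes. After scaling outside the mitochondrial chromosome, 12 of the 30 were positive with a median of -0.04, beside 31.0% positive and -0.19 over all genes. After quantile normalization 13 were positive with a median of -0.03, beside 48.4% and -0.01 over all genes. With the mitochondrial share as a covariate 18 were positive (median 0.05), and with the GC trend removed 21 (median 0.10). The groups did not overlap for 6 of the 30, all higher in Mc4r KO, beside 14.1% of all genes higher and 12.4% lower. The smallest p-values were those of Plin5, Slc25a20 and Fabp3. Plin5, which coats lipid droplets and ties them to mitochondria, was at 94.3 ± 14.4 FPKM in Mc4r KO and 44.0 ± 12.8 in WT hearts (log2 fold change 1.13, limma adjusted p = 0.0718). Fabp3, the heart fatty acid binding protein, was at 4620 ± 668 and 2616 ± 678 FPKM (0.84, limma adjusted p = 0.116). Slc25a20, the carnitine carrier of the inner membrane, was at 48.8 ± 5.68 and 36.1 ± 3.55 (0.43, limma adjusted p = 0.114).

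Of 17 ERR and PGC-1 target genes, 16 had a positive log2 fold change (median 0.21). The number positive was 11 after scaling outside the mitochondrial chromosome (median 0.01), beside 31.0% positive and a median of -0.19 over all genes. It was 11 after quantile normalization (median 0.04), 15 with the mitochondrial share as a covariate (0.18) and 14 with the GC trend removed (0.23). Over all genes, 48.4%, 50.2% and 46.0% were positive in these settings in turn. The groups did not overlap for 9 that were higher and for 1 that was lower, Gabpa, beside 14.1% of all genes higher and 12.4% lower. Perm1, a muscle regulator that is induced by PGC-1 and ERR, was at 104.5 ± 7.67 FPKM in Mc4r KO and 70.3 ± 5.72 in WT hearts (0.57, limma adjusted p = 0.0579), and WT replicate 3 was its lowest library. Sod2, the mitochondrial superoxide dismutase, had a log2 fold change of 0.29 (limma adjusted p = 0.133) and Cycs one of 0.30 (limma adjusted p = 0.151).

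Of 10 NRF1 target genes, 7 were positive (median 0.15). After scaling outside the mitochondrial chromosome 5 were positive (median -0.04), beside 31.0% and -0.19 over all genes. After quantile normalization 5 were positive (median 0.03). With the mitochondrial share as a covariate 9 were positive (median 0.13), and with the GC trend removed 6 (median 0.08). Alas1 was at 40.0 ± 8.12 FPKM in Mc4r KO and 21.8 ± 3.30 in WT hearts (0.86, limma adjusted p = 0.07). Cox5b, a subunit of cytochrome c oxidase, was at 239.0 ± 12.7 and 167.5 ± 55.6 FPKM (0.56, limma adjusted p = 0.208). Its WT values of 121.1, 152.3 and 229.1 FPKM had WT replicate 3 at the Mc4r KO level, as in Esrra. Tfam, the packaging factor of mitochondrial DNA and a further known target, was at 9.83 and 9.77 FPKM on average.

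The 20 partners and coregulators were split, with 10 positive and 10 negative (median 0.03). After scaling outside the mitochondrial chromosome 7 were positive (median -0.16), beside 31.0% positive and a median of -0.19 over all genes. The groups did not overlap for 6 that were higher and 4 that were lower, again beside 14.1% and 12.4% of all genes. Rxrg, the retinoid X receptor of muscle, was at 29.6 ± 2.50 FPKM in Mc4r KO and 23.1 ± 0.789 in WT hearts (0.36, limma adjusted p = 0.102). Lpin1, which encodes lipin 1, an enzyme that also coactivates PPARα with PGC-1α, was at 26.5 ± 4.24 and 18.6 ± 1.11 (0.49, limma adjusted p = 0.103). Nr0b2, the gene of the repressor SHP, was at 8.999 ± 0.314 and 5.83 ± 1.60 (0.65, limma adjusted p = 0.12).

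The 5 activators of Ppargc1a transcription all had negative log2 fold changes (median -0.35), and 5 of 5 were negative under both scalings named above. The median was -0.54 after scaling outside the mitochondrial chromosome, beside -0.19 over all genes. It was -0.20 with the GC trend removed and -0.15 with the mitochondrial share as a covariate. The groups did not overlap for 4 of them, beside 12.4% of all genes lower, and Mef2d was the exception. The GC content was 39.60% for Creb1, 40.55% for Atf2, 40.78% for Mef2c and 42.02% for Mef2a, and higher for Mef2d, at 55.03%. At an unadjusted limma p under 0.05, 4 of the 5 were lower in the main fit. That number was 3 with the GC trend removed and 1 with the mitochondrial share as a covariate. As for Esrra, GC content, mitochondrial share and genotype cannot be told apart here. Mef2a, a muscle transcription factor, was at 9.68 ± 0.202 FPKM in Mc4r KO and 14.0 ± 0.911 in WT hearts (-0.52, limma adjusted p = 0.0554). Mef2c was at 4.20 ± 0.556 and 5.81 ± 0.712 (-0.46, limma adjusted p = 0.136), and Creb1, the cyclic AMP effector, at 1.72 ± 0.163 and 2.23 ± 0.268 (-0.35, limma adjusted p = 0.222). Ppargc1a, with a GC content of 41.66%, did not show this difference. Markers of fibroblasts, 6 genes, summed to 135.8 to 155.4 FPKM in Mc4r KO and 184.8 to 189.1 in WT hearts, and those of cardiomyocytes, 7 genes, to 14846 to 16379 and 12271 to 12942 FPKM. Within these sums the genes differed in direction. Most of the fibroblast difference was Dcn, at 82.4 ± 5.03 FPKM in Mc4r KO and 119.3 ± 8.94 in WT hearts, whereas Col1a1 was at 20.2 ± 2.53 and 15.4 ± 5.44. Most of the cardiomyocyte difference was Actc1, at 7539 ± 666 and 5178 ± 528 FPKM, whereas Pln was at 455.3 ± 18.7 and 580.7 ± 120.3. In the main fit 5 of the 7 cardiomyocyte markers were positive (median 0.14), beside 48.8% and -0.01 over all genes. After scaling outside the mitochondrial chromosome, 3 of the 7 cardiomyocyte markers were positive (median -0.05), beside 31.0% and -0.19 over all genes. Neither marker list had a called gene, and their part in the list results was not tested.

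**Figure D5:**
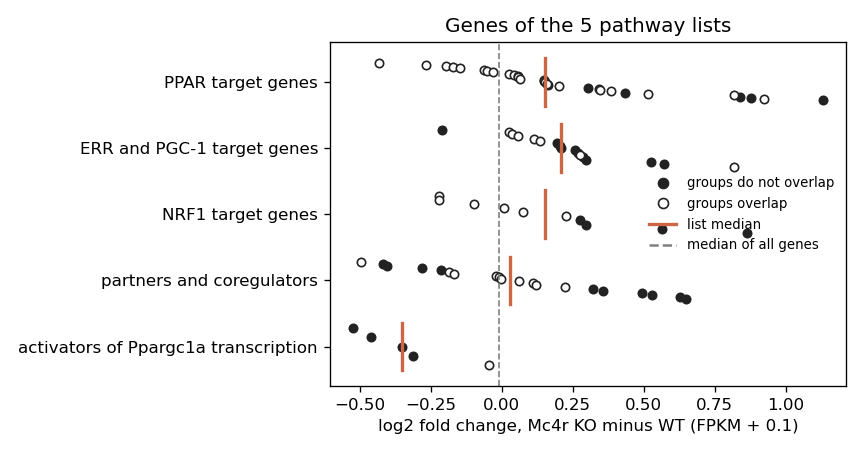
Log2 fold change, Mc4r KO minus WT, of each gene in the 5 lists, filled where the groups do not overlap, with orange lines for list medians and a dashed line at the median of all genes (-0.01). The list medians are 0.15, 0.21, 0.15, 0.03 and -0.35 from top to bottom.

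Without WT replicate 3, the counts of called list genes were 2 PPAR targets (Plin5 and Fabp3), 2 NRF1 targets (Alas1 and Cox5b), 2 partners (Nr0b2 and Rxrb) and 0 of the other lists, in limma with 3.5% of all genes called. Plin5 was then at a log2 fold change of 1.34 and Alas1 at 0.98. Plin5, Fabp3 and Alas1 were also called by limma voom on recovered reads, and with array weights these 3 and Nr0b2 were. Plin5 and Alas1 were called as well when limma tested only genes with a mean of at least 1 FPKM, or only protein-coding genes. Gabpa, Tfam, Mef2d and Rxrb were named after their values were seen.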

How the data were processed

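Polyadenylated RNA of 6 hearts, 3 Mc4r KO and 3 WT, was sequenced as 1 library per mouse, and replicates were grouped by the labels. After filtering, the authors aligned reads with HISAT2 2.0.5 (mm10 in the submitters' notes, which also name CASAVA), counted genes with featureCounts and deposited FPKM from gene length and mapped reads. Reads were recovered from FPKM times gene length, divided by the value of 1 read in each library, and 100% of values came out whole (tolerance 0.1). The deposited length of Esrra, 2539 bases, differs from the 4387 exonic bases of GENCODE M21, which affects its level against other genes but not its change. The counting is not stated to use strand.

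The main test was limma 3.58.1 (R 4.3.3, data.table version 1.17.8) with trend on log2(FPKM + 0.1) for 18035 genes with a mean of at least 0.1 FPKM, two-sided, with Benjamini-Hochberg adjustment over all of them. Calls used the thresholds of the study, 0.05 for the adjusted p and 0.75 for the absolute fold change, the latter read as log2. The study itself used DESeq2, another test, and reported more genes than were called here, so the counts of calls are not comparable. Fold changes on this scale understate those of low genes. The script was tested on simulated data. Exact permutation tests used scipy 1.17.1, and figures matplotlib 3.10.9. Intervals are at 95%, and counting errors cover counting only. Alternatives were another pseudocount, filter, scaling, variance model, covariate, GC correction, gene set, fold threshold, voom on recovered reads, a replicate block and each library left out. Division by the median ratios, 1 of the scalings, could not move the results, since the factor was 1.006 in every library. Myl7 as a covariate was added after seeing the data. The members and lists were chosen with earlier results of these data known. Named genes are all 10 regulators, called list genes, the 3 genes of smallest p in each list, and the 3 protein-coding genes (mean of at least 1 FPKM) most like Ppara, Esrra and Ppargc1a by Pearson r.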

Additional observations from a re-analysis of the deposited data

How the results depend on the processing

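Over 23 alternatives, the number of regulators called was 0 in 20 and 1 in the other 3, always Esrra: with array weights (1), with limma voom on recovered reads (1) and in the range of 0 to 1 when each library was left out. Ppara, Pparg, Esrra and Esrrb kept a positive log2 fold change in all 23, with Esrra from 0.10 to 1.32. The other 6 changed sign under at least 1 alternative. Fold changes stayed at the main values with another filter, only protein-coding genes, no trend, robust variance, the replicate block or another fold threshold. These settings, and division by the median ratios, could not move a sign, so their agreement in sign adds nothing. Scaling outside the mitochondrial chromosome gave -0.11 for Ppard, -0.10 for Rxra and -0.13 for Nrf1, and quantile normalization -0.019 for Rxra. Removal of the GC trend gave -0.17 for Ppard, -0.10 for Rxra and 0.17 for Ppargc1a. The mitochondrial share as a covariate gave -0.049 for Rxra, 0.17 for Esrrg, 0.10 for Ppargc1a, 0.0074 for Nrip1 and -0.16 for Nrf1. Array weights gave 0.013 for Ppargc1a. Leaving out 1 library gave Ppard from -0.012 to 0.16, Ppargc1a from -0.055 to 0.072 and Nrf1 from -0.024 to 0.12. The cause was not tested. The 3 within-library ratios kept their direction in 7 of 7 alternatives each, which were a pseudocount and each library left out. Without WT replicate 2 the log2 difference of Ppard/Ppara went from -0.19 to -0.043 and that of Ppargc1a/Nrip1 from 0.19 to 0.065. Without WT replicate 3 that of Esrrg/Esrra was -1.72. The covariate and the GC correction were not run on the ratios. With the mitochondrial share as a covariate, the log2 fold change of Esrrg (0.17) was above that of Esrra (0.10), opposite to their ratio. With the GC trend removed, Esrrg was at -0.08 and Esrra at 0.65. The number of neighbouring pairs in 1 order throughout was 5 to 6.

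With the replicate block 0 regulators were called (Esrra 0.96, limma adjusted p = 0.184) and 11 of all genes. Same-numbered libraries correlated at -0.14, 0.0074 and -0.082 in their deviations from the group means, so the numbers were not read as pairs. Over all genes the count of calls ran from 0 to 632: 632 without WT replicate 3, 0 without WT replicate 1, without WT replicate 2 or without Mc4r KO replicate 3, 2 without Mc4r KO replicate 2 and 7 without Mc4r KO replicate 1. It was 44 at a pseudocount of 1, 22 with no filter, 147 at a mean of at least 1 FPKM, 41 and 49 under the first and second scaling named above, 21 without the trend, 435 with array weights, 2 with the mitochondrial share, 31 with Myl7, 317 with voom and 204 for protein-coding genes. With 3 mice per group, an unadjusted p under 0.05 was seen in 3761 genes and an adjusted p under 0.05 in 105.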
